A study of Homo sapiens with 4 samples.

Results

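Kinesins are motor proteins that bind microtubules and use ATP to move along them or to take them apart. The probes described here are those of the Illumina array whose gene symbol is KIF with a number or KIFC1, KIFC2 or KIFC3, and which were detected (detection p-value below 0.05) on 2 or more of the 4 arrays. They numbered 29 probes for 23 genes, out of 20118 kept probes and 11389 genes with a kept probe. All 23 genes had a probe detected on all 4 arrays, so no gene entered through 1 group alone. A further 18 kinesin genes have probes on the array that did not meet the rule, each detected on at most 1 array. They are the mitotic KIF2B and KIF4B, the transport kinesins KIF1A, KIF3A, KIF3C, KIF5A, KIF5C, KIF13A, KIF17 and KIFC3, and KIF6, KIF9, KIF12, KIF19, KIF21B, KIF25, KIF26A and KIF26B. No value is given for these.

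The cells are MDA-LM2, cells of the breast cancer line MDA-MB-231 that were selected for growth in mouse lung. One group (siSOX4, 2 arrays) received siRNA against SOX4, a transcription factor gene, and the other (siControl, 2 arrays) a control siRNA, all by lipofection in serum-containing medium, with total RNA taken 48 h later. The design text speaks of a pair of independent SOX4 siRNAs, but no label ties an siRNA to a sample, so the arrays are called siSOX4 samples 1 and 2. The labels do not say that samples of a group were separate cultures, so p-values cover only the spread between these arrays, which may be technical.

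A dividing cell uses one set of kinesins to build the spindle, move chromosomes and complete cytokinesis. Another set carries vesicles, mitochondria and endosomes along microtubules throughout the cell cycle. Transcripts of many mitotic kinesins are made mainly in G2 and M phase, under the DREAM and MuvB complexes, B-MYB and FOXM1. These act through a short element close to the start site, called the cell cycle genes homology region (CHR). Many such promoters also hold CCAAT boxes, which are bound by NF-Y. By textbook role, 11 of the measured genes were classed as mitotic, 7 as transport and 5 as other, the last being kinesins of cilia, of microtubule length control or of both settings. The comparison asks how the mitotic and the transport kinesins differed between siSOX4 and siControl cells.

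As background, promoter stretches of 6 mitotic kinesins and of 2 transport kinesins are printed below, to show where such elements lie. The part of these elements in the array differences was not tested. Each stretch is the 110 bases before the start site in RefSeq (build GRCh38.p14), 5′ to 3′ on the gene's strand. Capitals mark 3 kinds of letters, on either strand. The CHR letters are TTTGAA, and also TTCGAA. The CCAAT box appears as ATTGG where it lies on the other strand. The core letters of SOX factors are AACAAT, and also AACAAAG.
KIF20A, chr5:138179002-138179111 (+): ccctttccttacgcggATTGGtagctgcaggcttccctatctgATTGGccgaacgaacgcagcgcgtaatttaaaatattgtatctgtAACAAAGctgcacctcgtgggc
KIF4A, chrX:70289994-70290103 (+): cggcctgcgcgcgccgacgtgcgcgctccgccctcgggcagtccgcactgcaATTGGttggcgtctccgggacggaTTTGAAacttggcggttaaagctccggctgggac
KIF11, chr10:92593020-92593129 (+): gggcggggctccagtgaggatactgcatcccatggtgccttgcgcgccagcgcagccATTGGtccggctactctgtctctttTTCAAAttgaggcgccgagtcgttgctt
KIF23, chr15:69414239-69414348 (+): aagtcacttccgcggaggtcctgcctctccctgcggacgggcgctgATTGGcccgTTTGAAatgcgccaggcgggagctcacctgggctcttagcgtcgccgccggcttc
KIF22, chr16:29790641-29790750 (+): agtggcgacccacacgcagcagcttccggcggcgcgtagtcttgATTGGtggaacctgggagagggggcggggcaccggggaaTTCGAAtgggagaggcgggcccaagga
KIF18A, chr11:28108157-28108266 (-): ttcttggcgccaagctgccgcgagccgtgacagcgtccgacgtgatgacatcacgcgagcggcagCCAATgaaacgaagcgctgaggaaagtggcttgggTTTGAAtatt
KIF1C, chr17:4997840-4997949 (+): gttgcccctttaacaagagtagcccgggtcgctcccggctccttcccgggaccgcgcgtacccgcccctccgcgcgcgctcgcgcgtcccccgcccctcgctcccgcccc
KIF3B, chr20:32277541-32277650 (+): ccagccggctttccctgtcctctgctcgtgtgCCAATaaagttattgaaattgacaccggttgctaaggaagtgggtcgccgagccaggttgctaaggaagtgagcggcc

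The whole window searched ran from 250 bases before to 50 bases after the start, and a gene counted if any of its windows held the letters. Of the 11 mitotic kinesins, 9 held CHR letters, 9 held CCAAT and 8 held both. Over the 9212 tested genes that have a window, 16.4% held CHR letters, 44.3% CCAAT and 8.87% both. The letters were not particular to kinesins. Of 20 spindle and midzone partners with a window (a list described below), 15 held CHR letters, 15 CCAAT and 12 both. Among the transport kinesins 5 of 7 had a window in the table, and of these 1 held CHR letters and 3 CCAAT. The 1 with CHR letters was KIF5B, which also held CCAAT and is not among the stretches printed. Of the 4 other kinesins with a window, KIF24 alone held CHR letters. In KIF11, KIF4A, KIF22 and KIF18A the CCAAT letters lay upstream of the CHR letters, as in KIF23, where they began at -64 and -55 from the start. KIF20A, the mitotic kinesin with the greatest difference on the arrays, had 2 inverted CCAAT boxes and no CHR letters in its window, and KIF2C had neither. SOX core letters were in the windows of 3 of 11 mitotic kinesins (KIF20A at -22, KIF15 and KIF20B) and of 1 of 5 transport kinesins (KIF1B), against 12.7% of tested genes. In KIF20B the SOX letters overlapped CHR letters. A match of letters is a description of the sequence and not a binding site.

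**Figure D1:**
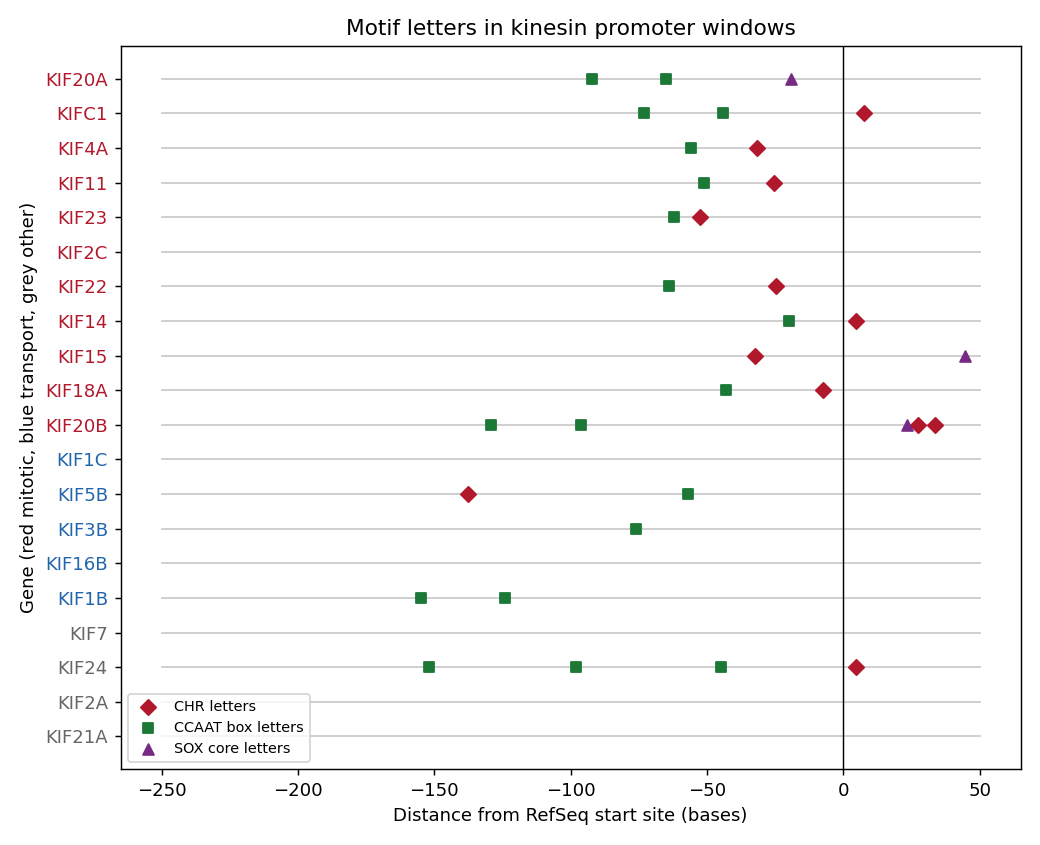
Positions of motif letters in the RefSeq promoter window of each measured kinesin gene (the window at the gene's outermost start where the table holds it); the x axis is the distance from the start site in bases and each grey line is one window. In the mitotic kinesins KIF11, KIF4A, KIF23, KIF22 and KIF18A, CCAAT (squares) lies upstream of CHR letters (diamonds) within 70 bases of the start, while KIF2C, KIF1C and KIF16B show no match.

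SOX4 itself was checked first. Its 1 probe had deposited intensities of 206 and 193 in siSOX4 samples 1 and 2, against 253 and 239 in siControl samples 1 and 2. Both siSOX4 values were below both controls, yet the difference of -0.35 ± 0.19 log2 units (limma's standard error, n = 2 arrays per group, as for every ± below) did not pass (adjusted p = 0.487, limma).

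Across the series, between 18609 and 20292 of 47323 probes were detected per array. The log2 difference between the siSOX4 samples had an SD of 0.43 over kept probes, against 0.26 between the siControl samples, so the siSOX4 pair was the less alike. Of 12 markers set down for the line, 8 were detected. Of those set down as present, VIM, CD44, SPARC, KRT8, KRT18 and KRT19 were detected and CDH2 was not. Of those set down as low or absent, ESR1, PGR and CDH1 were not detected, but EPCAM and ERBB2 were, on all 4 arrays. Summed intensities over a list of immune markers (3 of 5 on the array detected, PTPRC and CD3E not) were 420 to 524 in siSOX4 samples and 473 to 489 in controls. Those over the fibroblast list (3 of 5 detected, PDGFRA and DCN not) were 665 to 755 in siSOX4 samples and 588 to 628 in controls. Those over the endothelial list (1 of 4 detected, VWF, CDH5 and KDR not) were 289 to 307 and 261 to 271 in the same order. Background was not removed from these sums. The inferred negative controls had means of 65 to 70 for a single probe, so much of each sum is background. Within these lists PDGFRB was detected on both siSOX4 arrays and on 0 of 2 control arrays, so it has only a bound in the controls. PECAM1 differed by 0.63 ± 0.25. COL1A1 differed by 0.45 ± 0.24 and CD14 by 0.14 ± 0.28, both with overlap of the groups, while LUM, LYZ and MS4A1 lay below 0. The part of these markers in the kinesin results was not tested.

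No kinesin gene passed the threshold of an adjusted p under 0.05 (0 of 23, adjusted p from 0.138 to 0.984, limma with Benjamini-Hochberg over all kept probes). Over all genes the share called was 0%, with a smallest adjusted p of 0.0675. At an unadjusted p under 0.05, 6 kinesins were higher and 2 lower, where 7.44% of all genes were higher and 7.39% lower. All 11 mitotic kinesins had a difference above 0 (48.0% of all genes did), with a median of 0.44 log2 units and a range of 0.23 to 1.43. The 7 transport kinesins were divided into 3 above and 4 below 0, with a median of -0.15 and a range of -0.88 to 0.67. The sign of this median depends on the KIF1B probe used. The brightest differed by -0.88 and the others, both far dimmer, by 0.13 and 0.12. With either of the others the median would lie above 0. With the mean over a gene's kept probes it stayed at -0.15. Without the detection filter, which brings in undetected kinesins, the transport median was 0.065. All genes had a median of -0.02, with quartiles of -0.22 and 0.20.

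For 7 of 11 mitotic kinesins both siSOX4 samples lay above both controls, against 22.7% of all genes, and none had both below, against 25.1%. Transport kinesins had 2 genes above and 3 below by the same measure, and 2 overlapped. At an unadjusted p under 0.05, 5 mitotic kinesins were higher and 0 lower, while 1 transport kinesin was higher and 1 lower. The siSOX4 samples were unequal: siSOX4 sample 1 had a mitotic median of 0.89 above the control mean and siSOX4 sample 2 one of 0.38, while the controls were 0.09 apart. In sample 1, 11 of 11 mitotic kinesins lay above the control mean, where 47.2% of all genes did, and in sample 2, 8 of 11 did, where 50.0% of all genes did. Sample 1 exceeded sample 2 for 10 of 11, against 47.5% of all genes. The transport medians were -0.25 and -0.16 in siSOX4 samples 1 and 2.

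The mitotic median exceeded the transport median by 0.59 log2 units in the group difference, and by 1.14 and 0.54 in siSOX4 samples 1 and 2. In siControl samples 1 and 2 the values were -0.01 and 0.01. The controls were set against their own mean, so their values mirror each other and are not a like measure for the siSOX4 values. Without the detection filter the group value was 0.357. It would also be smaller than 0.59 with another KIF1B probe, since the transport median would then lie above 0. With 2 arrays per group no test of this class difference was made. In RNA of a whole culture, more cells in mitosis and more transcript per cell cannot be told apart. With siSOX4 sample 2 left out, 15 kinesins passed (10 mitotic and 4 transport, where 24.7% of all genes passed), and with siSOX4 sample 1 left out 6 passed (4 mitotic and 1 transport, where 11.9% of all genes passed), the lone siSOX4 sample being then assumed to vary like the controls.

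**Figure D2:**
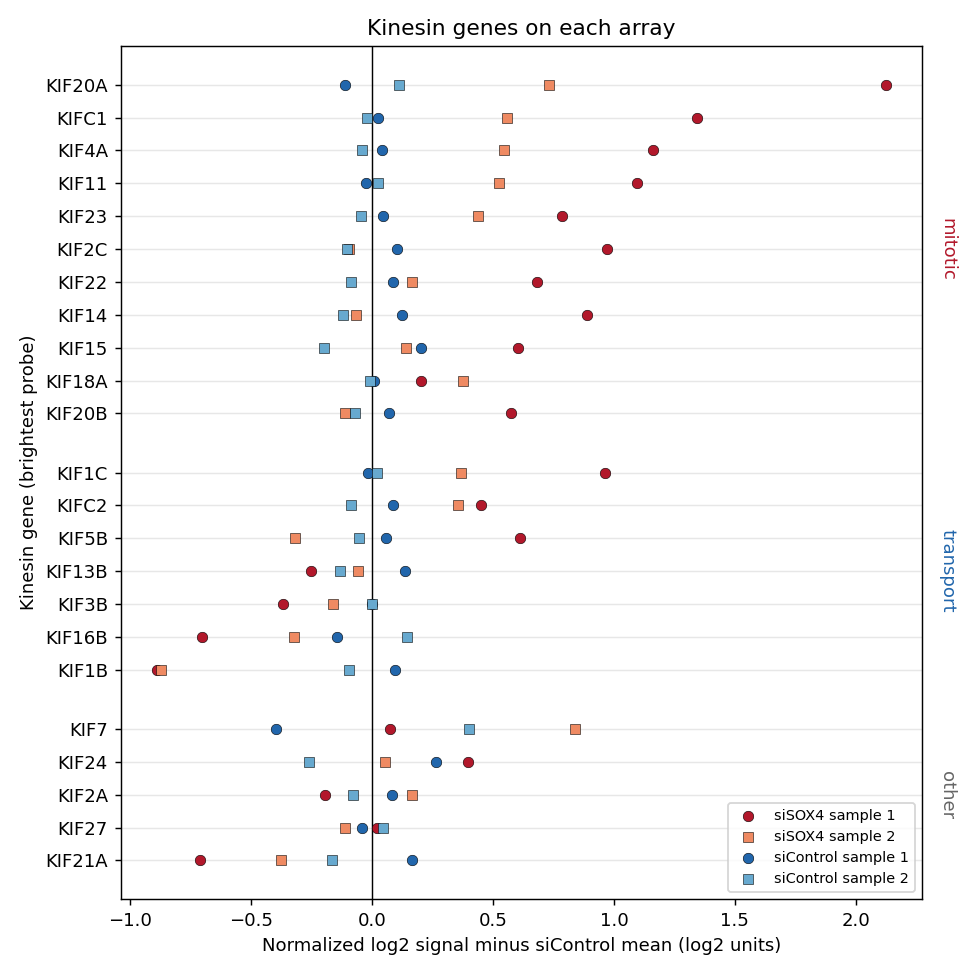
Normalized log2 signal of the 23 kinesin genes on each array, minus the gene's siControl mean (x axis, log2 units), for the brightest probe of each gene; circles are sample 1 and squares sample 2 of each group. The 11 mitotic kinesins at the top have siSOX4 sample 1 between 0.20 and 2.12 above the control mean and siSOX4 sample 2 between -0.11 and 0.73.

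Kinesins of the midzone and cytokinesis come first. KIF20A (MKLP2), which brings the chromosomal passenger complex to the midzone, had deposited intensities of 1531 and 637 in siSOX4 samples 1 and 2, against 394 and 445 in siControl samples 1 and 2. Both siSOX4 values were above both controls, and sample 1 was far above sample 2. The difference was 1.43 ± 0.39 log2 units, or 2.69-fold (adjusted p = 0.224, limma), the 26th highest of 11389 genes, with a 95% interval from 0.53 to 2.33. In the authors' deposited table its ratio of siControl to siSOX4 was 0.387.

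KIF23 (MKLP1), the motor subunit of centralspindlin, had 609 and 507 in siSOX4 samples, against 411 and 384 in controls. The groups did not overlap, and the difference was 0.61 ± 0.19 (adjusted p = 0.267, limma). A second, dimmer KIF23 probe gave 0.29 ± 0.20, again with both siSOX4 samples above both controls. KIF14, which acts with citron kinase in the midbody, had 760 and 433 in siSOX4 samples, against 503 and 426 in controls. Sample 2 lay among the controls, and the difference was 0.41 ± 0.30. KIF20B (MPP1), a kinesin of late cytokinesis, had 1156 and 772 in siSOX4 samples, against 891 and 799 in controls. Sample 1 was above both controls and sample 2 below both, and the difference was 0.23 ± 0.23.

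Of the motors that set spindle length and poles, KIF11 (Eg5) slides antiparallel microtubules apart so that the poles separate. Its intensities were 853 and 605 in siSOX4 samples, against 448 and 454 in controls. Both siSOX4 samples were above both controls by more than the controls differed, and the difference was 0.81 ± 0.22 (1.75-fold, adjusted p = 0.217, limma). A second KIF11 probe gave 1.16 ± 0.20 (adjusted p = 0.117, limma), the smallest adjusted p of any kinesin probe. KIFC1 (HSET), a minus-end motor that focuses poles and clusters extra centrosomes in cancer cells, had 994 and 619 in siSOX4 samples, against 460 and 442 in controls. That is a difference of 0.95 ± 0.25 (1.93-fold, adjusted p = 0.217, limma), with no overlap. KIF15, which can stand in for Eg5, had 308 and 250 in siSOX4 samples, against 261 and 208 in controls. The groups overlapped, and the difference was 0.37 ± 0.24.

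Among motors of chromosomes and kinetochores, KIF4A binds chromosome arms and limits the growth of midzone microtubules. It had intensities of 487 and 354 in siSOX4 samples, against 270 and 252 in controls. The groups did not overlap, and the difference was 0.85 ± 0.23 (1.81-fold, adjusted p = 0.225, limma). KIF4A has a near-identical copy, KIF4B, whose own probe was not detected, and the KIF4A probe may bind both transcripts. KIF2C (MCAK), the centromere depolymerase that corrects faulty attachments, had 633 and 342 in siSOX4 samples, against 394 and 342 in controls. Here siSOX4 sample 1 alone was high, with a difference of 0.44 ± 0.32. KIF22 (Kid), which pushes chromosome arms away from the poles, had 910 and 673 in siSOX4 samples, against 659 and 585 in controls, a difference of 0.42 ± 0.21 without overlap. KIF18A, which damps chromosome movements at the metaphase plate, had 264 and 305 in siSOX4 samples, against 251 and 244 in controls. It was the 1 mitotic kinesin with the higher value in siSOX4 sample 2, at a difference of 0.29 ± 0.19.

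**Figure D3:**
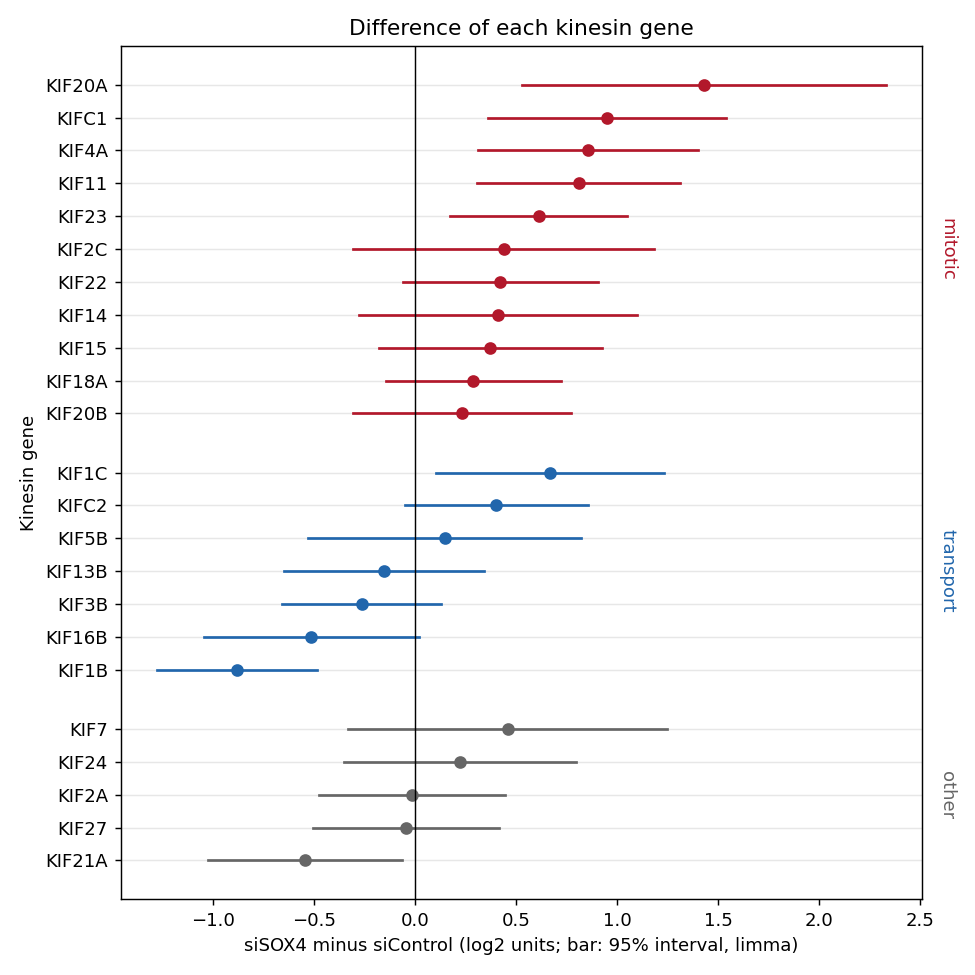
Difference of each kinesin gene, siSOX4 minus siControl (x axis, log2 units), with limma's 95% interval as the bar, by class. The intervals of KIF20A, KIFC1, KIF4A, KIF11, KIF23 and KIF1C lie above 0 and those of KIF1B and KIF21A below 0, before adjustment over all probes; after it none passed.

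The transport kinesins lay on both sides of 0. KIF1B, a kinesin-3 carrier of mitochondria and vesicle precursors, was the kinesin of smallest adjusted p among the brightest probes. It had intensities of 369 and 394 in siSOX4 samples, against 736 and 648 in controls. The siSOX4 samples were nearly equal and both well below the controls, with a difference of -0.88 ± 0.17 log2 units (0.543 of the control signal, adjusted p = 0.138, limma). Other KIF1B probes did not follow it. One detected on all 4 arrays and annotated to another KIF1B transcript gave 0.13 ± 0.20, and one detected on 2 of 4 arrays gave 0.12 ± 0.31. Both were far dimmer than the first. The former had intensities of 132 and 128 in siSOX4 samples, against 124 and 128 in controls. The latter had 107 and 80.5, against 105 and 79. Their nearness to background limits what they can show. A difference of KIF1B was therefore seen with 1 of 3 probes, the brightest.

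KIF16B, which carries early endosomes through a lipid-binding tail, had 111 and 125 in siSOX4 samples, against 142 and 158 in controls. The groups did not overlap, the difference was -0.51 ± 0.23 (adjusted p = 0.404, limma), and a second probe gave -0.82 ± 0.22 (adjusted p = 0.218, limma). KIF3B, a motor subunit of heterotrimeric kinesin-2, had 466 and 556 in siSOX4 samples, against 637 and 630 in controls. Both siSOX4 samples were below controls that differed little from each other, with differences of -0.26 ± 0.17 and, for a second probe, -0.28 ± 0.16. KIF13B, another kinesin-3 vesicle carrier, had 133 and 143 in siSOX4 samples, against 163 and 140 in controls, with overlap, and differed by -0.15 ± 0.21.

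Higher values were seen for KIF1C, a kinesin-3 motor that carries vesicles and integrins in migrating cells. Its intensities were 243 and 183 in siSOX4 samples, against 156 and 156 in controls. Both siSOX4 samples were above the controls, and the difference was 0.67 ± 0.24 (1.59-fold, adjusted p = 0.325, limma). KIFC2, a motor with its head at the C terminus that is known from neurons, had 218 and 213 in siSOX4 samples, against 189 and 171 in controls, a difference of 0.40 ± 0.20 without overlap. KIF5B, the ubiquitous heavy chain of kinesin-1, had 468 and 286 in siSOX4 samples, against 362 and 333 in controls. Its siSOX4 samples stood on opposite sides of the controls (0.61 and -0.32 from the control mean), and the difference was 0.15 ± 0.29.

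**Figure D4:**
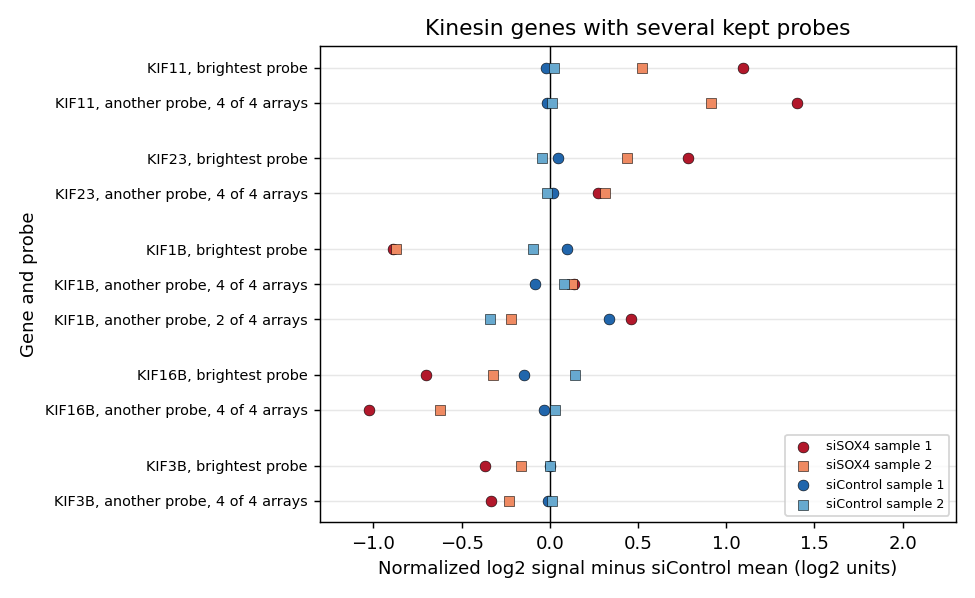
Kinesin genes with more than 1 kept probe, one row per probe, as normalized log2 signal minus the probe's siControl mean (x axis, log2 units) on each array. Both probes of KIF11 and KIF23 have both siSOX4 samples above the controls and those of KIF16B and KIF3B below them, while the 3 KIF1B probes differ by -0.88, 0.13 and 0.12.

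Of the 5 other kinesins, KIF21A, which restrains microtubule growth at the cell cortex, had 309 and 394 in siSOX4 samples, against 565 and 453 in controls. The groups did not overlap, and the difference was -0.54 ± 0.21 (adjusted p = 0.338, limma). KIF7, the ciliary-tip kinesin of Hedgehog signalling, had 124 and 173 in siSOX4 samples, against 107 and 142 in controls, and with controls 0.80 log2 units apart its difference of 0.46 ± 0.34 lay within their spread. KIF24, which removes cilia from the mother centriole, differed by 0.22 ± 0.25 and overlapped. KIF27, a relative of KIF7, differed by -0.05 ± 0.20. KIF2A, a depolymerase used both at spindle poles and in neurons, differed by -0.01 ± 0.20, with siSOX4 samples 1 and 2 at -0.19 and 0.17 from the control mean, where its mitotic relative KIF2C had 0.97 and -0.10.

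Partners of the mitotic kinesins were described from a list of 25 genes, 24 of them measured. Their median difference was 0.51 log2 units, with 22 above and 2 below 0, and 16 had both siSOX4 samples above both controls, against 22.7% of all genes. None passed, and at an unadjusted p under 0.05, 8 were higher and 0 lower, against 7.44% and 7.39% of all genes. PRC1, the midzone crosslinker that binds KIF4A, KIF23 and KIF20A, differed by 1.23 ± 0.25 (adjusted p = 0.145, limma). ASPM, which works at spindle poles, differed by 0.90 ± 0.28, the kinetochore protein gene NDC80 by 0.87 ± 0.27 and the cytokinetic scaffold gene ANLN by 0.84 ± 0.35. CENPE, a kinesin gene whose symbol falls outside the rule used here, is counted in this list and differed by 0.57 ± 0.22. As with the kinesins, siSOX4 sample 1 (median 0.96) was above siSOX4 sample 2 (median 0.11).

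Of 19 measured regulators of mitotic gene transcription, 11 were above and 8 below 0, with a median of 0.07. In this list 6 had both siSOX4 samples above both controls and 4 had both below, against 22.7% and 25.1% of all genes. FOXM1, named above, was among the 6 and differed by 0.43 ± 0.16 (adjusted p = 0.338, limma). Among the 4 were the DREAM subunit genes RBBP4 (-0.49 ± 0.20), RBL2 (-0.39 ± 0.20) and E2F4 (-0.31 ± 0.20). The DREAM subunit genes LIN52 (0.29 ± 0.20) and RBL1 (0.21 ± 0.21) were among the 6. The gene of B-MYB, MYBL2, had no kept probe and was not measured. E2F7, a repressing E2F factor, differed by -1.02 ± 0.20 (adjusted p = 0.138, limma). The activating factor E2F2 (0.75 ± 0.30), the repressor E2F8 (0.68 ± 0.34) and the CCAAT-binding subunit NFYA (0.59 ± 0.21) lay above the control mean in each siSOX4 sample, though E2F8 overlapped its controls and was detected on 1 of 2 control arrays, and none passed. The S-phase genes, 23 measured, had a median of 0.32, with 21 above and 2 below 0 and 0 past the threshold. For 15 of them both siSOX4 samples lay above both controls, against 22.7% of all genes, and for 0 both lay below, against 25.1%. At an unadjusted p under 0.05 (limma), 8 were higher and 0 lower, against 7.44% and 7.39% of all genes. Higher values were thus not particular to mitotic genes. In that list TYMS, the thymidylate synthase gene, differed by 0.92 ± 0.27, CCNE1 by 0.76 ± 0.21, the uracil glycosylase gene UNG by 0.68 ± 0.18 and the ribonucleotide reductase gene RRM2 by 0.59 ± 0.19.

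Of 17 measured light chains and cargo adaptors of the transport kinesins, 12 were below and 5 above 0, with a median of -0.19 and 0 past the threshold. The medians in siSOX4 samples 1 and 2 were -0.10 and -0.0053, so siSOX4 sample 2 alone gave a median close to 0. With any 1 array left out the adaptor median was -0.14 to -0.0053, nearer 0 than the -0.19 of all 4 arrays. KIFAP3, which joins the KIF3A and KIF3B motors into kinesin-2, differed by -0.46 ± 0.17, the mitochondrial adaptor genes TRAK2 and RHOT1 by -0.30 ± 0.20 and -0.27 ± 0.21, and the lysosomal adaptor gene PLEKHM2 by -0.27 ± 0.18. Genes of the opposing motor, cytoplasmic dynein with dynactin, had a median of -0.18 over 23 measured genes, with 16 below and 7 above 0 and 12 with both siSOX4 samples below both controls, against 25.1% of all genes. The medians in siSOX4 samples 1 and 2 were both -0.15. Those of greatest difference were DYNC2LI1 of ciliary dynein (-0.54 ± 0.23), the light chain genes DYNLRB1 (-0.46 ± 0.14) and DYNLT3 (-0.36 ± 0.17) and the dynein regulator NDEL1 (-0.30 ± 0.16), none of them past the threshold.

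Tubulins, the track on which kinesins walk, had a median of 0.10 over 15 measured genes, with 11 above and 4 below 0 and 0 past the threshold. TUBB6 (0.96 ± 0.30) and TUBB4B (0.65 ± 0.15), both beta-tubulins, exceeded the controls in each siSOX4 sample, while TUBE1, the epsilon-tubulin of centrioles (-0.88 ± 0.20), was lower and the beta-tubulin TUBB3 differed by -0.41 ± 0.20. Tubulin genes are closely related, so a probe may bind more than its own transcript.

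**Figure D5:**
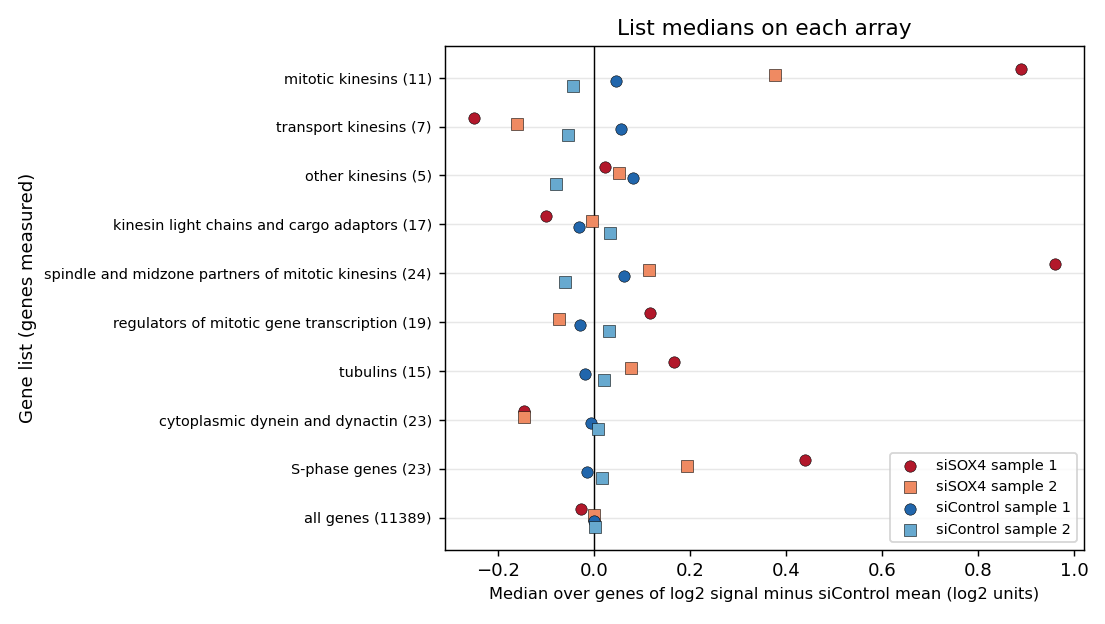
Median over the measured genes of each list of log2 signal minus the gene's siControl mean (x axis, log2 units), one point per array, with the number of genes in brackets and points shifted slightly up or down for visibility. The mitotic kinesins (0.89 and 0.38 in siSOX4 samples 1 and 2) and their spindle partners (0.96 and 0.11) lie farthest from 0 in siSOX4 sample 1, while in sample 2 the partners lie nearer 0 than the S-phase genes (0.19), and the medians of all genes lie at 0.00 or -0.03.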

How the data were processed

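RNA of 2 siSOX4 and 2 siControl samples was measured on single-colour Illumina arrays. The deposited table holds, per the file headers, a linear intensity and a detection p-value per probe, unscaled between arrays by its values. Recomputing showed that the deposited series matrix divides signals by the median of their array, a ratio. A further table of the authors gives a ratio for each accession. No source used here names the scanner software. Each detection p-value column was tied to the array whose signal it never increases with.

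Intensities were corrected and normalized with neqc of limma 3.58.1 in R 4.3.3 (negative controls inferred from the detection p-values, offset 16, quantile, log2). The 20118 probes detected (p-value below 0.05) on 2 or more arrays were fitted together (lmFit, eBayes with a trend, two-sided, Benjamini-Hochberg). The fit was tested on simulated data with changes of 2 log2 units either way and 1 spread for all probes, taken from the siControl pair. It therefore does not show how the fit handles smaller changes or the wider spread of the siSOX4 pair. Symbols came from the platform annotation (30113 of 47323 probes have 1 symbol, 8 several, 17202 are not listed). Each gene is given by the brightest of its kept probes. Precision is limited by 2 arrays per group, and no depth applies.

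The kinesins, their classes and the companion lists were chosen with earlier results of these data known. Kinesins that meet the symbol rule are all named, whether mitotic, transport or other. Also given are the 4 members of greatest absolute difference in each companion list and the markers of other cell types that were higher. FOXM1, CENPE, RBBP4, RBL2, E2F4, LIN52 and RBL1 were added to these. Further probes of a gene are given where they met the rule. The alternatives were other background corrections, scalings, filters, probe choices, variance models, a replicate block, leaving out each array and other class assignments. The replicate numbers were not taken as pairs: over genes, the deviations of same-numbered samples correlated at 0.13.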

Additional observations from a re-analysis of the deposited data

How the results depend on the processing

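With all 4 arrays, no kinesin passed under any of the alternatives run, and all kinesins classed as mitotic above stayed above 0. Where KIF2A was counted as mitotic too, it lay just below 0 (-0.014). The calls depended on single arrays. Leaving out 1 array in turn gave 0 to 15 kinesins past the threshold and 13 to 17 above 0. It moved the mitotic median between 0.34 and 0.89, the transport median between -0.26 and -0.019, their difference between 0.54 and 1.14, and SOX4 between -0.44 and -0.27. In the same way the spindle partners ranged from 0.11 to 0.96, S-phase genes from 0.19 to 0.44, tubulins from 0.077 to 0.17, regulators of mitotic transcription from -0.074 to 0.12, adaptors from -0.14 to -0.0053 and dynein genes from -0.20 to -0.15. Single genes that turned sign when an array was left out were KIF20B (-0.11 to 0.58), KIF14 (-0.066 to 0.89), KIF2C (-0.10 to 0.97), KIF5B (-0.32 to 0.61), KIF2A (-0.19 to 0.17), KIF24 (-0.040 to 0.49) and KIF27 (-0.11 to 0.022). Without the detection filter, which adds 18 genes near background, 27 kinesins were above 0, the transport median was 0.065 and the mitotic median exceeded it by 0.357. The adaptor median was -0.12 without background correction, -0.11 on the authors' series matrix values and -0.086 without the filter. The dynein median was -0.13 without background correction, -0.17 without the filter and -0.13 as the mean over a gene's probes, which put tubulins at 0.18. The replicate block left 0 kinesins past the threshold and the mitotic median at 0.44. Over all genes the count past the threshold, 0 on the main setting, was 133 with the block, 95 with array weights, 77 without the filter and 1 on the series matrix values; the cause was not tested. Intensities near 70, the level of the inferred negative controls, limit dim genes such as KIF16B and KIF27.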
